A study of Mus musculus with 6 samples.

Results

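Fc receptors bind the constant part of antibodies and tie them to the cells that carry the receptor. All 7 genes examined here, Fcgr1, Fcgr3, Fcgr4, Fcgr2b, Fcer1g, Fcer1a and Fcgrt, were listed by symbol and had a row in the count table, which held 23508 genes. They were measured by RNA sequencing in 6 tumors of 4T1 cells, a mouse line of triple-negative mammary carcinoma. In 3 of them, called with-peak tumors, tissue was collected on the day when neural activity first peaked, and in the other 3, called before-peak tumors, at an earlier time. Tumors are numbered by the replicate numbers of the labels. The labels name no genotype, host strain, age or agent for either group, and do not say whether each tumor came from its own animal, so the p-values cover the spread between these 6 samples, which may be technical. Time of collection and onset of the peak cannot be told apart.

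Fcgr1, Fcgr3 and Fcgr4 encode activating receptors for IgG on macrophages, monocytes and neutrophils; they signal through the common gamma chain encoded by Fcer1g, which holds an immunoreceptor tyrosine-based activation motif (ITAM). Fcgr2b encodes the inhibitory IgG receptor of B cells and myeloid cells, whose tail holds an inhibitory motif (ITIM) that recruits phosphatases. Fcer1a encodes the IgE-binding chain of mast cells and basophils, and Fcgrt encodes the neonatal receptor FcRn, which pairs with B2m and returns IgG from endosomes to the cell surface. In tumors, tissue macrophages are the usual main source of the activating receptors.

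The coding bases of both signalling motifs, read from GENCODE M21 transcripts and printed 5′ to 3′, show the contrast on which the family turns. Capitals mark the codons of the tyrosines that are phosphorylated, 2 in the activating motif and 1 in the inhibitory one.
Fcer1g ITAM, bases 193 to 237 of 258 coding bases: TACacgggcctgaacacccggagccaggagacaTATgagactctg
Fcgr2b ITIM, bases 949 to 966 of 1020 coding bases: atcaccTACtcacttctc
The same ITIM bases were found in 4 coding Fcgr2b transcripts. The longest annotated Fcer1g coding sequence, of 276 bases, gave no ITAM match, and the motif is shown from a shorter one.

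The next sequence shows where the counts of a pair of members are uncertain. Fcgr3 and Fcgr2b share an identical run of 129 coding bases in their extracellular part, starting at coding base 263 of Fcgr3 and 278 of Fcgr2b.
Fcgr3 and Fcgr2b, shared run: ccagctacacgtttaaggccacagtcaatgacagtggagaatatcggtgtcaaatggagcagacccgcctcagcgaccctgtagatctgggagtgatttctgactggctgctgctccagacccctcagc
Of all stretches of 100 bases in the longest coding Fcgr3 transcript, 3.53% also occurred in Fcgr2b transcripts, and of those of 50 bases, 12.8%. No stretch of 50 bases was shared between any other pair of members. The read length and the treatment of reads with several matches are not given in the sources at hand, so the counts of Fcgr3 and Fcgr2b are uncertain to that extent. Fcgr2b also overlaps the exon of Gm38204 on the opposite strand, which had 65 counts in all against 17535 for Fcgr2b, and Fcgrt has Gm45669 on the opposite strand within its span with no shared exon (2817 counts in all).

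Total counts ran from 13010443 to 14549357 in with-peak tumors 1 and 2, with 10591067 in with-peak tumor 3, and from 11640276 to 12677637 in before-peak tumors. The carcinoma marker Krt8 was abundant in all tumors (at 1059 to 1716 CPM in with-peak tumors and 1397 to 1676 CPM in before-peak tumors; CPM is library-scaled counts, by TMM). Of all tested genes, 3.38% were lower at an unadjusted edgeR p under 0.05 and 7.38% were lower with no overlap. All 7 carcinoma markers had negative log2 fold changes, and 3 of them (Krt5, Krt14 and Cdh1) were lower at an unadjusted edgeR p under 0.05 with no overlap. Their summed level was 2434 to 3735 CPM in with-peak tumors and 3157 to 3957 CPM in before-peak tumors, and DESeq2 called Krt5 alone (adjusted p = 0.00279), at 3.16 to 6.99 CPM in with-peak tumors and 10.1 to 19.6 CPM in before-peak tumors. With-peak tumors 2 and 3 stood apart in skeletal muscle markers, whose summed level was 1227 and 1274 CPM there, 227.8 CPM in with-peak tumor 1 and 48.7 to 206.2 CPM in before-peak tumors. Before-peak tumor 3 stood apart in B and plasma cell markers, at 460.1 CPM summed over 8 genes, against 44.5 to 85.6 CPM in with-peak tumors and 4.85 and 18.6 CPM in the other before-peak tumors. Erythroid markers were at 276.9 to 2149 CPM in with-peak tumors and 137.2 to 250.1 CPM in before-peak tumors. The part of these cells in the receptor values was not tested.

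All 6 members that passed the filter on low counts had higher mean levels in with-peak tumors, by 1.37-fold for Fcgr2b to 3.07-fold for Fcgr4. The activating receptors Fcgr1, Fcgr3 and Fcgr4 and the adaptor Fcer1g had no before-peak tumor at or above any with-peak tumor. Fcgr2b and Fcgrt overlapped between the groups, and the IgE chain Fcer1a was near the limit of detection. None of these differences passed the edgeR quasi-likelihood test at an adjusted p of 0.05 over 16755 genes, a threshold that 0 genes (0%) passed in either direction. At an unadjusted p under 0.05, 5 of the 6 tested members were higher and 0 lower, where 6.12% of all tested genes were higher and 3.38% lower at that threshold. Without with-peak tumor 2 the count of members was 3. With 1 tumor omitted, the share of all tested genes higher at that threshold was 6.41%, 4% and 5.81% for with-peak tumors 1, 2 and 3 and 5.18%, 5.37% and 7.33% for before-peak tumors 1, 2 and 3. DESeq2, run as a second test, called 3 members higher (Fcgr3, Fcgr1 and Fcer1g) and 1.44% of all tested genes; it called 0.143% lower.

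**Figure D1:**
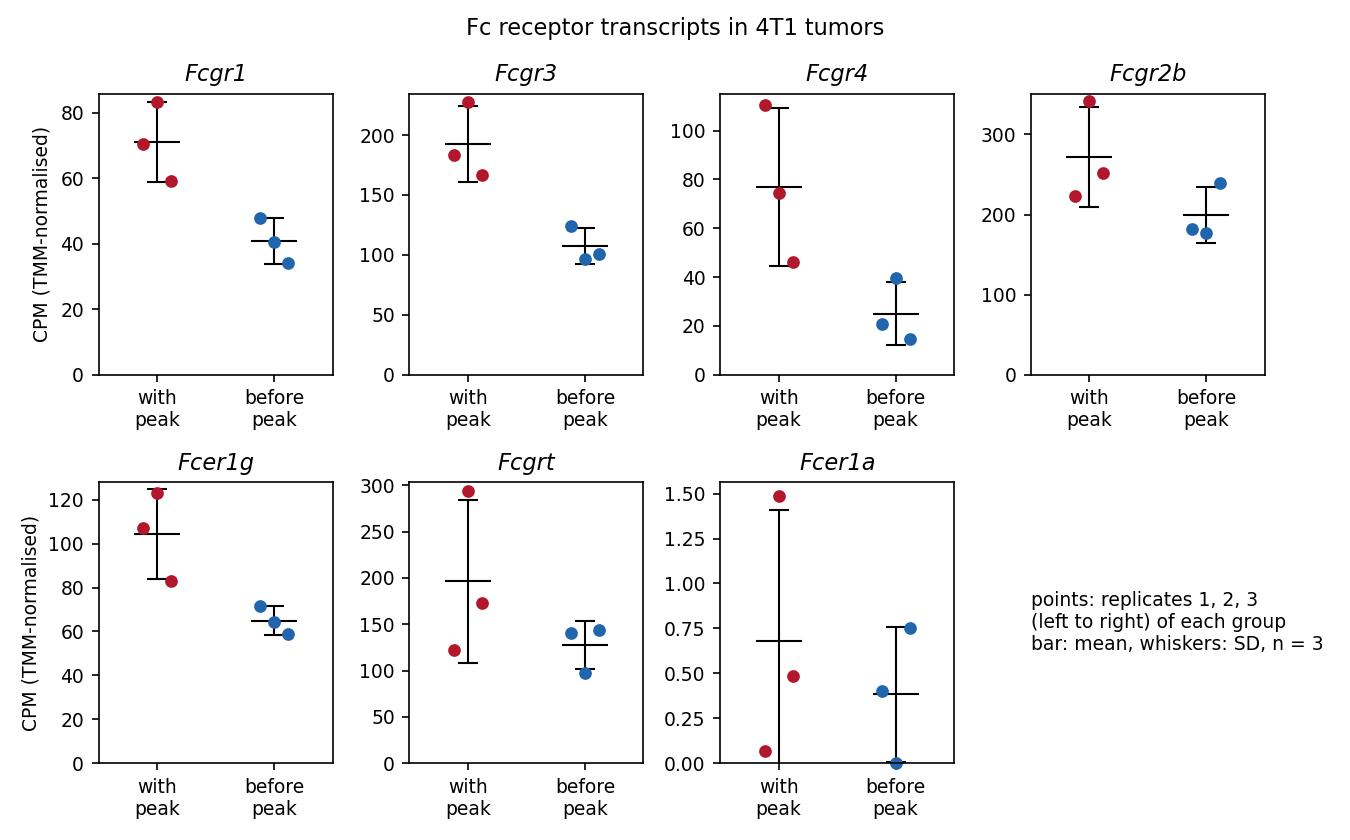
TMM-normalised CPM (linear axes from 0) of each Fc receptor in 3 with-peak tumors (red, left) and 3 before-peak tumors (blue, right); bars are means and whiskers SD, n = 3, with those of Fcer1a ending at the axis. The groups do not overlap for Fcgr1, Fcgr3, Fcgr4 and Fcer1g, and overlap for Fcgr2b, Fcgrt and Fcer1a.

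Fcgr3 (ENSMUSG00000059498, chromosome 1, 171051174 to 171064935, minus strand, GRCm38), a low-affinity activating receptor for IgG complexes, was at 183.4, 227.9 and 166.7 CPM in with-peak tumors 1, 2 and 3 and at 124.5, 96.8 and 100.8 CPM in before-peak tumors 1, 2 and 3. Its lowest with-peak tumor lay well above its highest before-peak tumor. The means were 193 ± 31.6 CPM in with-peak tumors and 107 ± 15 CPM in before-peak tumors (SD, n = 3 each). The fold change was 0.84 on the log2 scale (SE 0.15; edgeR adjusted p = 0.117; DESeq2 adjusted p = 3.66e-04). This was the smallest p among the members.

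Fcgr1 (ENSMUSG00000015947, chromosome 3, 96282909 to 96293969, minus strand), the high-affinity receptor that binds single IgG molecules and is known as an interferon-gamma target, was at 70.5, 83.4 and 59.1 CPM in with-peak tumors 1, 2 and 3 and at 47.8, 40.6 and 34.0 CPM in before-peak tumors 1, 2 and 3. The groups did not overlap. The log2 fold change was 0.80 (SE 0.17; edgeR adjusted p = 0.179; DESeq2 adjusted p = 0.00673), with means of 71.0 ± 12.1 CPM in with-peak tumors and 40.8 ± 6.92 CPM in before-peak tumors (SD, n = 3 each).

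Fcgr4 (ENSMUSG00000059089, chromosome 1, 171018920 to 171029761, plus strand), a mouse receptor of monocytes, macrophages and neutrophils for the IgG2 subclasses, had the largest fold change of the family and the largest SE. It was at 110.3, 74.3 and 46.1 CPM in with-peak tumors 1, 2 and 3 and at 20.9, 39.5 and 14.8 CPM in before-peak tumors 1, 2 and 3. With-peak tumor 3 and before-peak tumor 2 nearly met. The fold change was 1.62 on the log2 scale (SE 0.48; edgeR adjusted p = 0.397; DESeq2 adjusted p = 0.125), and leaving out 1 tumor gave 2.11 (before-peak tumor 2 omitted) to 1.27 (with-peak tumor 1 omitted).

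Fcer1g (ENSMUSG00000058715, chromosome 1, 171229572 to 171234365, minus strand), the common gamma chain that the activating receptors need at the cell surface, was at 107.3, 123.2 and 82.9 CPM in with-peak tumors 1, 2 and 3 and at 71.8, 64.3 and 58.7 CPM in before-peak tumors 1, 2 and 3. Its groups did not overlap. The log2 fold change was 0.69 (SE 0.16; edgeR adjusted p = 0.219; DESeq2 adjusted p = 0.0171), with means of 105 ± 20.3 CPM in with-peak tumors and 65.0 ± 6.57 CPM in before-peak tumors (SD, n = 3 each). In all, 4 of the 6 tested members were higher with no overlap, where 8.13% of all tested genes were higher and 7.38% lower without overlap.

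Fcgr2b (ENSMUSG00000026656, chromosome 1, 170958617 to 170976547, minus strand), the inhibitory receptor, was at 223.0, 342.3 and 251.6 CPM in with-peak tumors 1, 2 and 3 and at 181.9, 176.7 and 239.1 CPM in before-peak tumors 1, 2 and 3. Before-peak tumor 3, the tumor high in B cell markers, lay above with-peak tumor 1; Fcgr2b is the Fc receptor that B cells carry, and the part of B cell RNA in its level was not tested. The fold change was 0.45 on the log2 scale (SE 0.18; edgeR adjusted p = 0.498; DESeq2 adjusted p = 0.354). Omitting before-peak tumor 3 gave 0.60, and omitting with-peak tumor 2 gave 0.25.

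Fcgrt (ENSMUSG00000003420, chromosome 7, 45092990 to 45103851, minus strand), the IgG-recycling receptor of endothelium, macrophages and other cells, was at 122.5, 293.8 and 172.5 CPM in with-peak tumors 1, 2 and 3 and at 140.6, 97.6 and 143.9 CPM in before-peak tumors 1, 2 and 3. With-peak tumor 2 stood far above the rest, and with-peak tumor 1 lay below both before-peak tumors 1 and 3. The fold change on the log2 scale, 0.62 (SE 0.34; edgeR adjusted p = 0.632), was 0.21 when with-peak tumor 2 was omitted. That tumor also had the highest summed levels of fibroblast markers (10330 CPM, against 5512 and 6287 CPM in the other with-peak tumors and 4079 to 6843 CPM in before-peak tumors) and endothelial markers (550.1 CPM, against 251.6 and 373.3 CPM in the other with-peak tumors and 265.6 to 389.7 CPM in before-peak tumors), whose part in the Fcgrt value was not tested. B2m, the light chain of FcRn and of MHC class I, was at 2276, 1901 and 1571 CPM in with-peak tumors 1, 2 and 3 and at 848.4, 1685 and 912.4 CPM in before-peak tumors 1, 2 and 3 (log2 fold change 0.74, SE 0.29, edgeR adjusted p = 0.509). Its highest before-peak tumor was tumor 2, in which Fcgrt was lowest.

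Fcer1a (ENSMUSG00000005339, chromosome 1, 173221284 to 173227214, minus strand) had 1, 19 and 5 counts in with-peak tumors 1, 2 and 3 and 5, 0 and 9 counts in before-peak tumors 1, 2 and 3, which did not pass the filter on low counts. Fitted with no filter, its log2 fold change was 0.82 (SE 1.17; edgeR adjusted p = 0.899). The count of 0 allows up to 3 counts, or 0.235 CPM, by counting error alone. Ms4a2, the beta chain of the same IgE receptor, had 2 to 5 counts per with-peak tumor and 2 to 10 per before-peak tumor. Mast cell and basophil markers were nonetheless measured, at 71.6, 125.6 and 69.4 CPM summed over 10 genes in with-peak tumors 1, 2 and 3 and 64.5 to 81.7 CPM in before-peak tumors. With-peak tumor 2 was highest for Fcer1a and for these markers alike.

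Levels of different genes were set side by side per length, as TPM (counts per length, scaled to a fixed sum) over the union of annotated exons. In with-peak tumors Fcer1g stood highest, at 311 ± 60.6 TPM, followed by Fcgr3 at 289 ± 46.4, Fcgrt at 242 ± 107, Fcgr4 at 160 ± 68.6, Fcgr2b at 122 ± 27.0, Fcgr1 at 71.3 ± 12.1 and Fcer1a at 1.77 ± 1.89 TPM (SD, n = 3). In before-peak tumors the order was Fcer1g at 211 ± 15.9, Fcgr3 at 176 ± 20.8, Fcgrt at 172 ± 35.6, Fcgr2b at 98.1 ± 19.4, Fcgr4 at 56.6 ± 29.1, Fcgr1 at 44.7 ± 6.45 and Fcer1a at 1.10 ± 1.10 TPM (SD, n = 3). Fcer1g, Fcgr3 and Fcgrt did not differ beyond their spread in with-peak tumors, nor did Fcgr3 and Fcgrt in before-peak tumors. The place of Fcgr4 above Fcgr2b in with-peak tumors depended on the length used: over the longest coding transcript, Fcgr2b was at 200 ± 44.1 TPM and Fcgr4 at 160 ± 68.6 TPM.

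Since 1 inhibitory receptor stands against 3 activating ones, their balance was computed in each tumor. Per length, Fcgr2b made up 14.9%, 21% and 21.8% of the summed Fcgr1, Fcgr3, Fcgr4 and Fcgr2b level in with-peak tumors 1, 2 and 3 and 22.7%, 22.9% and 33.2% in before-peak tumors 1, 2 and 3. The groups were separate but nearly touching. Over the longest coding transcript instead of the exon union, the shares were 20%, 27% and 27.9% in with-peak tumors 1, 2 and 3. In before-peak tumors 1, 2 and 3 they were 28.7%, 29.5% and 40.4%. Before-peak tumor 3, highest with both lengths, was the tumor high in B cell markers, and the part of B cell RNA was not tested. Fcgr4 made up 33.9%, 21% and 18.4% in with-peak tumors 1, 2 and 3 and 12%, 23.6% and 9.45% in before-peak tumors 1, 2 and 3, which overlap, and the shares of Fcgr3 and Fcgr1 overlapped as well. The log2 ratio of Fcgr2b to the other 3, over the exon union, was -2.09 ± 0.37 in with-peak tumors and -1.51 ± 0.44 in before-peak tumors (SD, n = 3 each), a difference of -0.58. Over the longest coding transcript the difference was -0.555. Against Fcgr3 alone the log2 ratio of Fcgr2b was -1.25 ± 0.18 in with-peak tumors and -0.85 ± 0.35 in before-peak tumors, with overlapping groups. These ratios describe chosen genes and were given no test.

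Macrophage and monocyte markers had higher summed levels in with-peak tumors too, and their part in the receptor values was not tested. Of 15 such genes, 13 were higher at an unadjusted p under 0.05, where 6.12% of all tested genes were. Of the 15, 0 passed the edgeR adjusted threshold and DESeq2 called 6, where it called 1.44% of all tested genes higher. Their median log2 fold change was 0.73, against 0.74 over the 6 tested Fc receptors and -0.02 over all tested genes. Without with-peak tumor 2, where 4% of all tested genes were higher at the unadjusted threshold, 8 of the 15 markers were. Their summed level was 4683, 6487 and 5025 CPM in with-peak tumors 1, 2 and 3 and 3906, 2567 and 3177 CPM in before-peak tumors 1, 2 and 3, with no marker at 0 in any tumor. Of 9 tested neutrophil markers, from cells that also carry Fcgr3 and Fcgr4, 8 had positive log2 fold changes, with a median of 0.45, and 2 (Csf3r and Mmp8) were higher at an unadjusted p under 0.05. That count was 6 without before-peak tumor 3, 0 without before-peak tumor 1 and 1 without any other tumor. The share of all tested genes higher at that threshold was 7.33%, 5.18% and 4% to 6.41% in these fits. The summed level of the neutrophil markers overlapped, at 536.3 to 775.1 CPM in with-peak tumors and 407.2 to 931.4 CPM in before-peak tumors, of which Mmp9 alone made up 794.2 CPM in before-peak tumor 2. In bulk tumors, more cells of a type and more RNA per cell cannot be told apart.

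Set against the mean log2 CPM of those 15 macrophage markers in the same tumor, the means of the groups differed by 0.24 or less in size for 5 receptors, and by more for Fcgr4. Fcer1g lay at -0.65 ± 0.14 in with-peak tumors and -0.64 ± 0.21 in before-peak tumors, Fcgr1 at -1.20 ± 0.09 in with-peak tumors and -1.31 ± 0.30 in before-peak tumors, and Fcgr3 at 0.24 ± 0.03 in with-peak tumors and 0.08 ± 0.16 in before-peak tumors (log2 difference from the markers, SD, n = 3 each). Fcgr2b was at 0.73 ± 0.16 in with-peak tumors and 0.97 ± 0.20 in before-peak tumors, and Fcgrt at 0.18 ± 0.47 in with-peak tumors and 0.32 ± 0.16 in before-peak tumors. Fcgr4 was at -0.47, -1.37 and -1.64 in with-peak tumors 1, 2 and 3 and at -2.35, -1.17 and -2.85 in before-peak tumors 1, 2 and 3, a difference of 0.96 between the means. On this scale the groups overlapped for each of the 6 receptors.

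**Figure D2:**
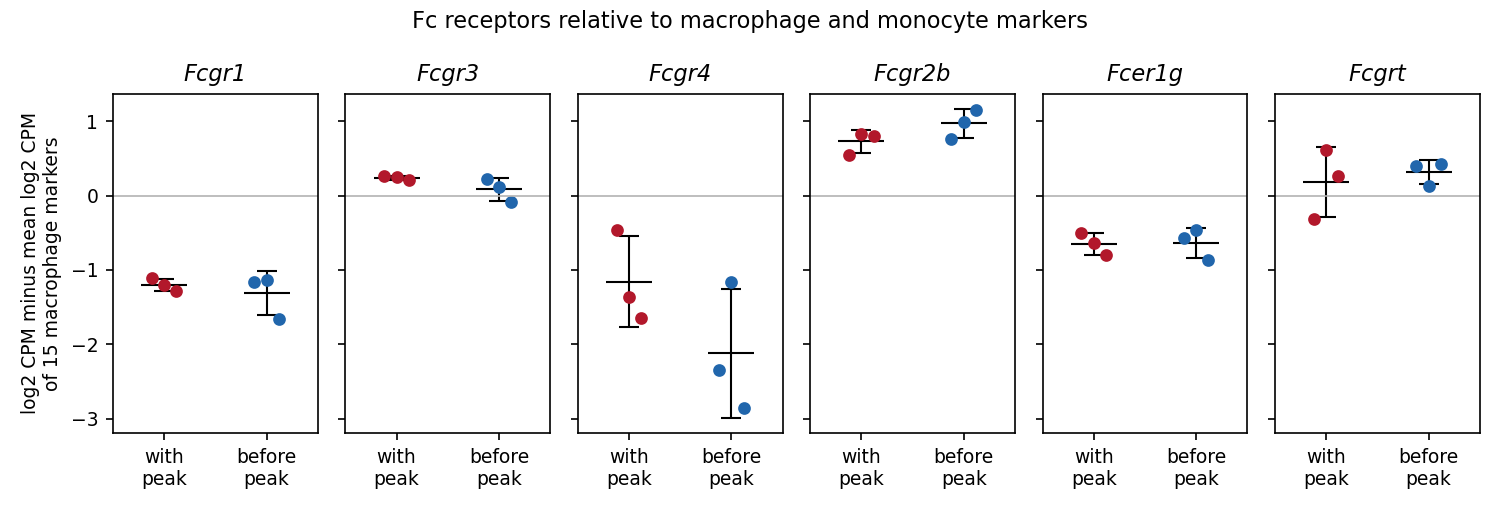
Log2 CPM of each tested Fc receptor minus the mean log2 CPM of 15 macrophage and monocyte markers in the same tumor, for with-peak (red, left) and before-peak tumors (blue, right); bars are means and whiskers SD, n = 3. The groups overlap in each panel, and Fcgr4 has the widest spread, from -0.47 to -2.85.

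Interferon-gamma raises Fcgr1 and Fcgr4 in mouse macrophages. Ifng itself had 32, 26 and 6 counts in with-peak tumors 1, 2 and 3 and 0, 3 and 2 counts in before-peak tumors 1, 2 and 3, which did not pass the filter. A list of interferon-gamma targets was examined, which also holds Ifng and the receptor chains Ifngr1 and Ifngr2. Of 11 tested genes of the list, all had positive log2 fold changes, with a median of 0.91. Without overlap, 3 of the 11 were higher and 0 lower, where 8.13% and 7.38% of all tested genes were. At an unadjusted p under 0.05, 1 was higher and 0 lower, where 6.12% and 3.38% of all tested genes were. The 1 gene was Ifngr1, a chain of the receptor, with a log2 fold change of 0.28 (SE 0.11) and an edgeR adjusted p of 0.484. Omitting 1 tumor gave 8 at that threshold for before-peak tumor 2 (5.37% of all tested genes) and 3 for before-peak tumor 3 (7.33%). It gave 4 for with-peak tumor 3 (5.81%) and 0 for with-peak tumor 1 (6.41%). The part of interferon-gamma in the receptor values was not tested. Gbp5, an interferon-induced GTPase, and Socs1, the feedback inhibitor, had log2 fold changes of 1.5 (SE 0.62) and 1.16 (SE 0.55), with edgeR adjusted p of 0.535 and 0.582.

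The genes whose profiles over the 6 tumors were closest to each receptor, by the root-mean-square difference of centred log2 CPM, are given as a description. Closest to Fcgr4 were Sectm1a, Irgm1 (an interferon-induced GTPase) and AA467197, at differences of 0.23, 0.24 and 0.24. Closest to Fcgr3 were Hexa (a lysosomal hexosaminidase subunit), Ly86 (a partner of a Toll-like receptor relative on B cells and myeloid cells) and Fbxo36, at 0.07, 0.08 and 0.08. For Fcgr1 they were Zfp273, Rps12-ps9 and Tifa at 0.07, 0.09 and 0.11, for Fcer1g AA414768, Tmem86a and Agtrap at 0.06, 0.07 and 0.08, for Fcgr2b Bcat2, Gm20528 and Zeb1 at 0.05, 0.06 and 0.07, and for Fcgrt Fxyd1, Tnfsf12 and Dnm1 at 0.05, 0.09 and 0.09. Among the members, Fcgr1 and Fcer1g were closest to each other, at 0.09, and Fcgr1 and Fcgr3 were at 0.10, while Fcgr4 was at 0.65 or more from each of the others.

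Promoter windows of the 3 activating receptors, from 250 bases before to 50 bases after the RefSeq start (GRCm38.p6), are shown. These genes did not overlap between the groups, and 2 of them are interferon-gamma targets. Fcer1g did not overlap either, and its window is not shown. Both strands were searched for GAGGAA (core of the myeloid factor PU.1; TTCCTC on the other strand), TTCNNNGAA (GAS, the interferon-gamma activated sequence) and GAAA, any 2 bases and GAAA (core of the interferon-stimulated response element, ISRE). Matches are in capitals, and none overlapped another in these windows. RefSeq has a second Fcgr3 start close by, and the first is shown.
Fcgr1, chr3:96293920-96294219, minus strand: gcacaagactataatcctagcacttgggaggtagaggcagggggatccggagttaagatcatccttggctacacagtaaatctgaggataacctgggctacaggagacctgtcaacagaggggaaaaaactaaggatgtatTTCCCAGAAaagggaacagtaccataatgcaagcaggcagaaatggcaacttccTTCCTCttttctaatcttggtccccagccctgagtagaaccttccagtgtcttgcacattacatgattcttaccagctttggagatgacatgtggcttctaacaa
Fcgr3, chr1:171059354-171059653, minus strand: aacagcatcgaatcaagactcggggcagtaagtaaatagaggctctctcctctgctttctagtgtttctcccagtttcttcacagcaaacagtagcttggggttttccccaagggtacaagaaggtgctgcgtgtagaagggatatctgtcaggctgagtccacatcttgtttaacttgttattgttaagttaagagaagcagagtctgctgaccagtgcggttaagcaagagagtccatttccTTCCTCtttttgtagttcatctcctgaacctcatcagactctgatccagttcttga
Fcgr4, chr1:171018676-171018975, plus strand: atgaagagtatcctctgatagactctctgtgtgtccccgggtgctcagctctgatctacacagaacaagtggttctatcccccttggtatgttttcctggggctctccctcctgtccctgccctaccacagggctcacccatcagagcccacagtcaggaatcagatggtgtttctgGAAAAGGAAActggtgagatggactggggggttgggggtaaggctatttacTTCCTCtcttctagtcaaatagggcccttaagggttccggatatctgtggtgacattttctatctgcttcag
Each of the 3 windows held TTCCTC once, starting 55, 6 and 22 bases before the start of Fcgr1, Fcgr3 and Fcgr4. The Fcgr1 window also held the GAS letters, 109 bases before the start, and the Fcgr4 window held the ISRE core, 73 bases before it. Among all 32851 RefSeq windows of this length, 28.3% held GAGGAA, 8.30% TTCNNNGAA and 3.44% the ISRE core on either strand. In the windows of Fcgr2b, Fcer1g and Fcgrt none of the 3 was found, and that of Fcer1a held GAGGAA, 216 bases before the start. A match of letters is a description and no measurement of binding.

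Fcgr2b, Fcgr4, Fcgr3 and Fcer1g lie within 275.7 kb of chromosome 1, among genes of unrelated function. Of 27 genes of the table lying in this span or within 100 kb of it, 24 were tested. The 20 that are no Fc receptor of the list had a median log2 fold change of 0.05, and 0 of them had an unadjusted edgeR p under 0.05 or separate groups. Of all tested genes, 6.12% were higher and 3.38% lower at that threshold, and 8.13% were higher and 7.38% lower with separate groups. With shares this small, a count of 0 among 20 genes says little. Sdhc, a subunit of succinate dehydrogenase that lies between Fcgr3 and Fcer1g, differed by 0.02 on the log2 scale (SE 0.11), with an edgeR adjusted p of 0.970. Fcrla and Fcrlb, Fc receptor-like genes of B cells beside Fcgr2b, had log2 fold changes of -1.17 (SE 1.23) and -0.16 (SE 0.32), with edgeR adjusted p of 0.805 and 0.901; Fcrla was at 19.1 CPM in before-peak tumor 3 and at 0.70 to 4.46 CPM in the other tumors. The neighbours were chosen after the values were seen and given no test as a group.

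**Figure D3:**
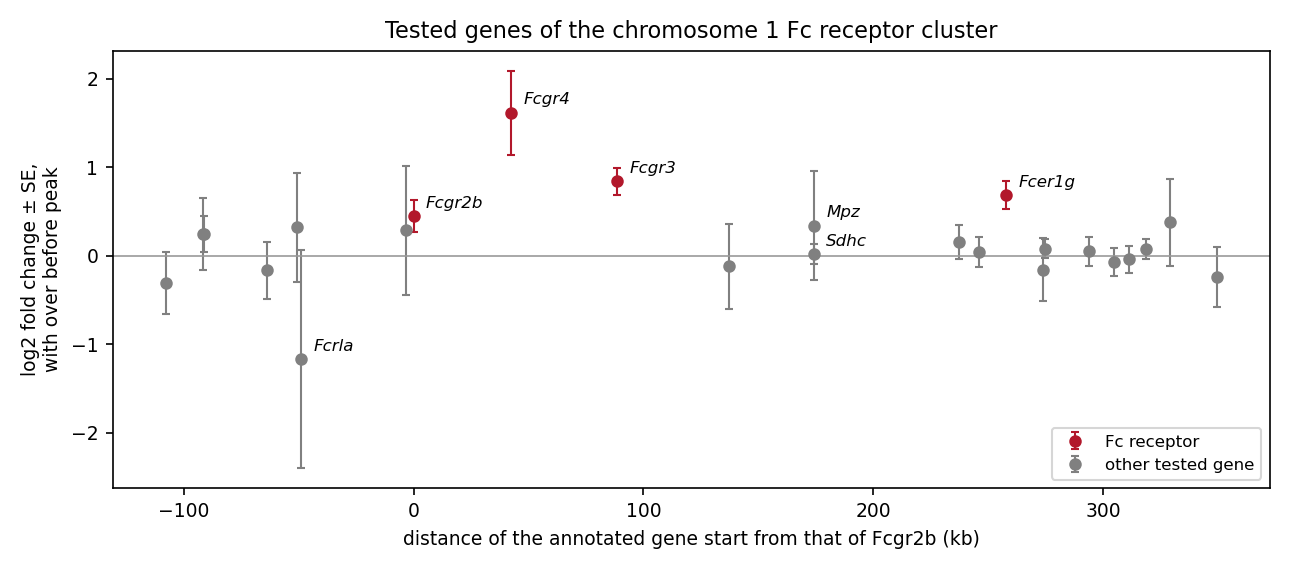
Log2 fold change (with peak over before peak, whiskers SE from edgeR) of the 24 tested genes of the chromosome 1 cluster against the distance of their annotated start from that of Fcgr2b, in kb. The 4 Fc receptors (red) lie between 0.45 and 1.62, and the 20 other genes (grey) have a median of 0.05.

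Of the antibodies that these receptors bind, IgG heavy chain transcripts of 3 subclasses were higher in with-peak tumors, and their groups did not overlap. Without overlap, 3 of the 12 immunoglobulin constant regions examined were higher and 0 lower, where 8.13% and 7.38% of all tested genes were. Ighg2b was at 24.3, 12.9 and 13.6 CPM in with-peak tumors 1, 2 and 3 and at 0.08, 1.25 and 3.67 CPM in before-peak tumors 1, 2 and 3. Ighg2c was at 20.4, 12.1 and 17.9 CPM in with-peak tumors 1, 2 and 3 and at 0.24, 4.23 and 1.75 CPM in before-peak tumors 1, 2 and 3, and Ighg3 had 54, 44 and 72 counts in with-peak and 1, 0 and 11 counts in before-peak tumors 1, 2 and 3. In this order the log2 fold changes came to 3.35 (SE 0.91), 3.01 (SE 0.77) and 3.81 (SE 0.94), with edgeR adjusted p of 0.390, 0.354 and 0.285 and, for Ighg3, a DESeq2 adjusted p of 8.18e-04. Without before-peak tumor 3 they were 4.64, 2.90 and 6.57, with edgeR adjusted p of 0.120, 0.384 and 0.046. The low before-peak counts of 0 to 54 make these folds imprecise.

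The other 9 immunoglobulin constant regions overlapped between the groups. Ighg1 was at 83.5, 238.5 and 82.3 CPM in with-peak tumors 1, 2 and 3 and at 8.59, 1.88 and 190.4 CPM in before-peak tumors 1, 2 and 3, and the kappa chain Igkc at 84.7, 174.8 and 106.6 CPM in with-peak and 9.87, 7.83 and 205.2 CPM in before-peak tumors 1, 2 and 3. Before-peak tumor 3 lay among or above the with-peak tumors for both. Without that tumor, 9 of the 12 constant regions were higher at an unadjusted p under 0.05, where 7.33% of all tested genes were. With it, 3 were higher and 0 lower, where 6.12% and 3.38% of all tested genes were. The log2 fold change without that tumor was 4.69 for Ighg1 and 3.78 for Igkc (edgeR adjusted p = 0.334 and 0.0465), against 1.01 and 0.72 with it (0.882 and 0.903). The reference genome is of another strain than that in which 4T1 arose, and what strain differences do to these counts was not tested.

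The list of ITAM signalling holds kinases and adaptors downstream of the gamma chain and related genes, among them other ITAM adaptors such as Tyrobp. Of 27 tested genes of ITAM signalling, 3 were higher and 1 lower at an unadjusted p under 0.05 (6.12% and 3.38% of all tested genes), and the median log2 fold change was 0.09. Those higher were Tyrobp, the sister adaptor with its own ITAM, Gab2, a docking protein of Fc receptor signalling, and Pik3r5, a regulatory subunit of a phosphoinositide kinase of leukocytes. Tyrobp was at 154.6, 182.6 and 138.5 CPM in with-peak tumors 1, 2 and 3 and at 109.9, 78.5 and 98.3 CPM in before-peak tumors 1, 2 and 3 (log2 fold change 0.73, SE 0.15, edgeR adjusted p = 0.179; DESeq2 adjusted p = 0.00574). Gab2 and Pik3r5 had log2 fold changes of 0.62 (SE 0.17) and 0.64 (SE 0.20), with edgeR adjusted p of 0.324 and 0.393. The lower one was Plcg2, a phospholipase, with a log2 fold change of -0.54 (SE 0.19) and an edgeR adjusted p of 0.435. Syk, the kinase that docks on the phosphorylated ITAM, was at 61.2, 78.4 and 67.3 CPM in with-peak tumors 1, 2 and 3 and at 42.1, 35.6 and 84.6 CPM in before-peak tumors 1, 2 and 3 (log2 fold change 0.35, SE 0.33, edgeR adjusted p = 0.779), with before-peak tumor 3 highest. Without before-peak tumor 3, 9 of the 27 were higher at that threshold, where 7.33% of all tested genes were.

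Of the 10 phosphatases, ligases and adaptors of the inhibitory arm, 0 were higher and 0 lower at an unadjusted edgeR p under 0.05, with a median log2 fold change of -0.04; DESeq2 called 0. Without before-peak tumor 3, 2 were higher at that threshold, where 7.33% of all tested genes were. Inpp5d, the phosphatase SHIP that docks on the Fcgr2b ITIM, had a log2 fold change of 0.15 (SE 0.23), Ptpn6, the phosphatase SHP, 0.07 (SE 0.22), Csk, which restrains Src-family kinases, -0.23 (SE 0.10), and the ligase Cblb -0.17 (SE 0.17), with edgeR adjusted p of 0.866, 0.944, 0.533 and 0.781. Csk was the 1 gene of the list with separate groups, at 111.1, 121.7 and 121.1 CPM in with-peak tumors 1, 2 and 3 and at 139.6, 130.7 and 144.3 CPM in before-peak tumors 1, 2 and 3. Of all tested genes, 7.38% were lower without overlap. The direction of Inpp5d and Ptpn6 turned when before-peak tumor 2 was left out, at -0.04 and -0.12. Ptpn6 overlaps Gm20531, so its counts are uncertain.

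The phagocyte oxidase, the enzyme that Fc receptor engagement switches on in phagocytes, was higher in all its 5 subunits with no overlap between the groups. All 5 had an unadjusted p under 0.05. Of all tested genes, 8.13% were higher without overlap and 6.12% were higher at that threshold. Cybb, the catalytic subunit, was at 167.8, 129.3 and 129.2 CPM in with-peak tumors 1, 2 and 3 and at 74.5, 73.8 and 88.4 CPM in before-peak tumors 1, 2 and 3 (log2 fold change 0.85, SE 0.14, edgeR adjusted p = 0.0976; DESeq2 adjusted p = 1.34e-04). Cyba and Ncf1 had log2 fold changes of 0.53 (SE 0.13) and 0.71 (SE 0.15), with edgeR adjusted p of 0.244 and 0.179. DESeq2 called these 3, and 1.44% of all tested genes higher. Ncf1 overlaps Gtf2ird2 on the opposite strand, so its counts are uncertain to that extent. Without before-peak tumor 2, 3 of the 5 passed the unadjusted threshold, where 5.37% of all tested genes were higher. Macrophage and monocyte markers were higher too, and their part in the oxidase values was not tested.

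Among 7 tested genes for chains of receptors listed as also signalling through the common gamma chain, 3 were higher and 0 lower at an unadjusted p under 0.05. Of all tested genes, 6.12% were higher and 3.38% lower at that threshold. Clec4d, a C-type lectin of myeloid cells, was at 22, 33.6 and 20.8 CPM in with-peak tumors 1, 2 and 3 and at 7.95, 8.46 and 15.8 CPM in before-peak tumors 1, 2 and 3 (log2 fold change 1.25, SE 0.31, edgeR adjusted p = 0.270; DESeq2 adjusted p = 0.00970). Il3ra, a chain of the interleukin receptor of basophils, and Clec4e, a receptor for mycobacterial glycolipid and dead cells, had log2 fold changes of 0.88 (SE 0.25) and 0.79 (SE 0.32), with edgeR adjusted p of 0.343 and 0.498; Il3ra overlaps Gm48860, so its counts are uncertain.

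A list of other immunoglobulin receptors and related proteins had 9 tested genes, with a median log2 fold change of -1.17. At an unadjusted p under 0.05, 1 was higher and 1 lower, where 6.12% and 3.38% of all tested genes were. Of the genes below 0, the B cell genes Fcer2a, Fcmr, Fcrl1 and Fcrla were high in before-peak tumor 3 alone. Fcer2a, the low-affinity IgE receptor, was at 1.68, 1.80 and 5.24 CPM in with-peak tumors 1, 2 and 3 and at 1.93, 0.08 and 59.5 CPM in before-peak tumors 1, 2 and 3, and Fcmr, the IgM receptor, at 2.88, 0.94 and 5.72 CPM in with-peak and 1.69, 0.16 and 30.4 CPM in before-peak tumors 1, 2 and 3. These 2 were chosen after their values were seen. The one lower at the unadjusted threshold was Pigr, which carries polymeric antibody across epithelium, at 0.42, 0.08 and 0.10 CPM in with-peak tumors 1, 2 and 3 and at 6.18, 1.41 and 0.83 CPM in before-peak tumors 1, 2 and 3 (log2 fold change -3.69, SE 0.97, edgeR adjusted p = 0.297; DESeq2 adjusted p = 0.016). It was the only DESeq2 call of the list. Its with-peak values rest on 6, 1 and 1 counts, and the log2 fold change was -2.38 when before-peak tumor 1 was omitted. Cd300lf, a myeloid receptor of the CD300 family and the higher one, had a log2 fold change of 0.63 (SE 0.23), Fcgbp, an IgG-binding mucus protein, -1.12 (SE 0.51), and Trim21, the cytosolic antibody receptor, 0.36 (SE 0.20), with edgeR adjusted p of 0.445, 0.577 and 0.629.

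**Figure D4:**
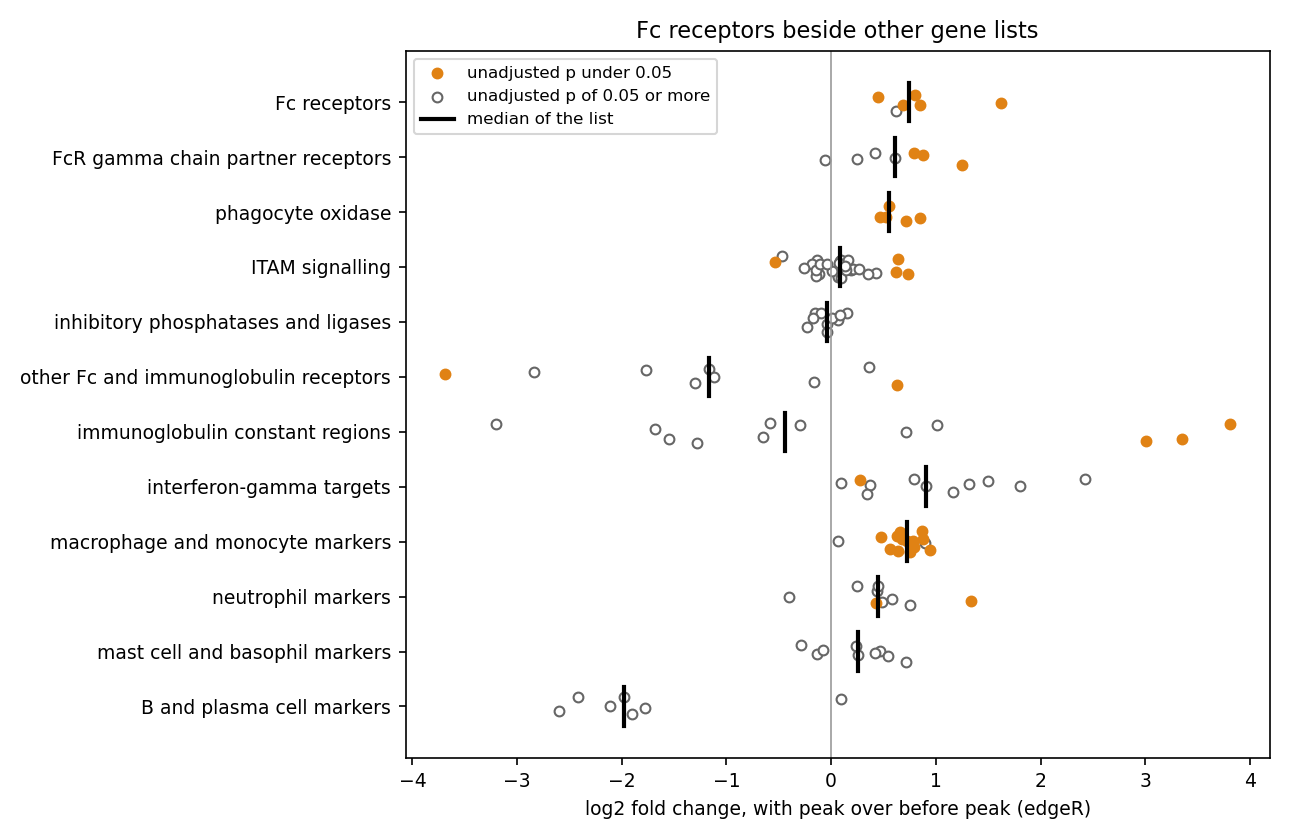
Log2 fold change (with peak over before peak, edgeR) of each tested gene of 12 lists, with filled points for an unadjusted p under 0.05 and a black bar at each list's median. The Fc receptors have a median of 0.74 and the macrophage and monocyte markers 0.73. The list labelled interferon-gamma targets, which also holds the receptor chains Ifngr1 and Ifngr2, has a median of 0.905. The gamma chain partner receptors have a median of 0.614 and the phagocyte oxidase 0.55. The ITAM signalling genes (0.09) and the inhibitory arm (-0.04) lie around 0.

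Across 16 other fits, among them 6 that left out 1 tumor each and 2 chosen after the data were seen, Fcgr1, Fcgr3, Fcgr4, Fcer1g and Fcgr2b kept positive log2 fold changes, of 0.55 to 0.93, 0.66 to 0.96, 1.27 to 2.13, 0.48 to 0.83 and 0.16 to 0.60. Fcgrt ran from -0.06 to 0.88, and was negative in the fit of with-peak tumor 1 alone against the 3 before-peak tumors. The share of mitochondrial rRNA counts also separated the groups, at 0.0587% to 0.0655% in with-peak tumors and 0.0313% to 0.0456% in before-peak tumors. RNA preparation and tissue content cannot be told apart as its source, and its part in these results was not tested.

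**Figure D5:**
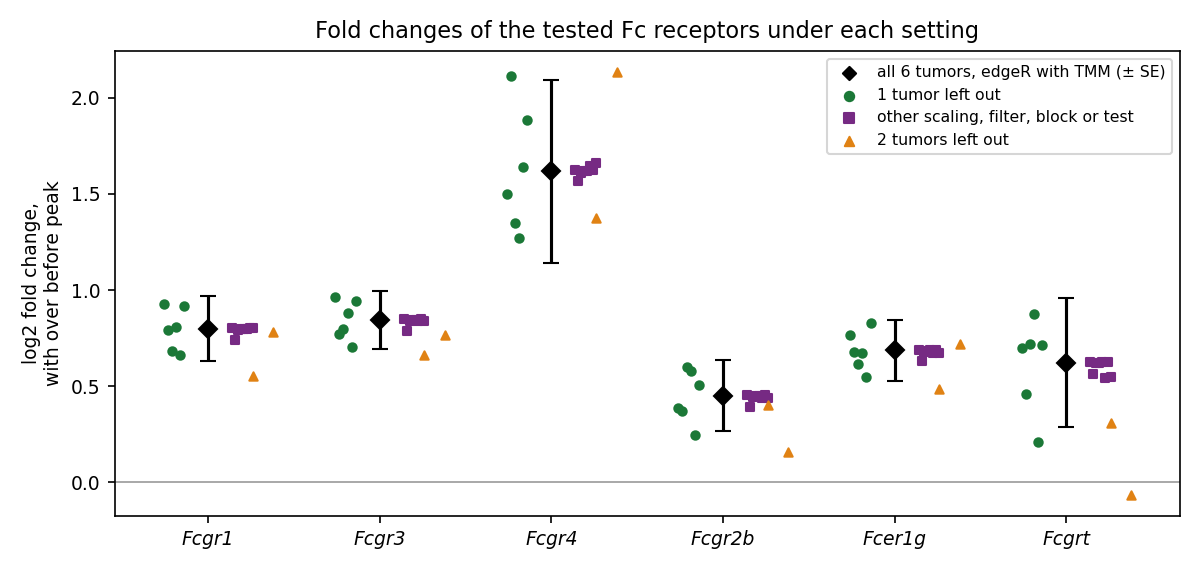
Log2 fold change (with peak over before peak) of the 6 tested Fc receptors in the edgeR fit of all tumors (black, whiskers SE) and in 16 other fits: 1 tumor left out (green), another scaling, filter, block or test (purple) and 2 tumors left out (orange). All points lie above 0 except 1 for Fcgrt, at -0.06.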

How the data were processed

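Per the labels' protocols, Trizol RNA of frozen tissue was enriched by oligo(dT) and read from both ends, with no strand information. The authors deposited raw counts for each gene, 1 column per tumor, not normalized. The submitters' processing notes name FastQC, STAR and mm10 without versions; the counter and its annotation are not given in the sources at hand. Of 23508 Ensembl IDs, 23479 matched GENCODE M21 (GRCm38), which gave symbols, coordinates and exon lengths.

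Counts were filtered by filterByExpr (minimum count 10, minimum total count 15; 16755 genes left), scaled by TMM and tested with the edgeR 4.0.16 quasi-likelihood test (robust, two-sided, no covariate) in R 4.3.3, with Benjamini-Hochberg adjustment over all tested genes and a threshold of 0.05. The SE is the size of the log2 fold change over the square root of F. DESeq2 1.42.0 and limma-voom (limma 3.58.1) were run as alternatives, as were other scalings, filters, a replicate block and fits without 1 or 2 tumors. The edgeR fit was tested on simulated data. The 7 members, the gene lists and the tests were chosen with earlier results of these data known. From each list the up to 3 tested genes with the smallest p were named, with a short set fixed by name; other genes named were chosen after their values were seen, among them Sdhc, Fcrla, Fcrlb and Krt8. Depth was 10591067 to 14549357 counts per tumor; the limit behind a count of 0 covers counting error only. Within a group, chi-square over its degrees of freedom was 17.1 to 28.9 for each pair of tumors, so no library was treated as a duplicate. A gene of the set fixed by name is not reported here.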

Additional observations from a re-analysis of the deposited data

How the results depend on the processing

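Over all genes 0 were called in either direction by edgeR under the other scalings (RLE, upper quartile, library size alone), by edgeR with a floor of 1 CPM in 3 libraries, by limma-voom, and in the fit of 1 against 3 tumors. With no filter on low counts 26 were called higher and 3 lower; DESeq2 gave 242 higher against 24 lower, a looser adjusted threshold of 0.1 gave 32 higher and 3 lower, and a fit of 2 tumors a group, omitting before-peak replicate 3 and with-peak replicate 2 and chosen after seeing the data, gave 30 higher and 0 lower; the cause was not tested. Leaving out 1 tumor gave 0 to 17 higher and 0 lower: 17 when before-peak replicate 2 was omitted, 13 for before-peak replicate 3 and 9 for with-peak replicate 1. Of the Fc receptors, DESeq2 called 3 over all genes and edgeR 0 in each of its fits; at an unadjusted p under 0.05 the count was 3 to 6 when 1 tumor was left out, the 3 without with-peak replicate 2, and 4 with library size alone. With library size alone 43.0% of all unadjusted calls were higher, against 64.4% with TMM, and the median of all genes was -0.07, against -0.02. The replicate numbers are not stated to pair tumors, and deviations of same-numbered tumors correlated at -0.06, -0.10 and 0.03; with them as a replicate block 1 gene was called higher, and 4 Fc receptors had an unadjusted p under 0.05. The log2 fold change of Fcgrt was -0.063 with with-peak replicate 1 alone against 3 tumors (a fit in which that tumor is assumed to vary like the others, chosen after seeing the data), and that of Ptpn6 was -0.11. Leaving out 1 tumor gave -0.043 to 0.46 for Inpp5d and -0.12 to 0.36 for Ptpn6. The difference in the log2 ratio of Fcgr2b to the activating receptors was -0.71 to -0.33 when 1 tumor was left out. Fcer1a, Ms4a2 and Ifng are limited by depth.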
